A study of Mus musculus with 24 samples.

Results

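Microglia, the resident macrophages of the brain, are made and kept by a small set of DNA-binding proteins. PU.1 (gene Spi1) and IRF8 act together at macrophage enhancers, RUNX1, IKZF1, IRF5 and C/EBPalpha (gene Cebpa) act in many blood lineages, and c-MAF (gene Maf), SALL1 and BHLHE41 are tied to the resident state of tissue macrophages. The genes of these 9 factors, Spi1, Irf8, Irf5, Runx1, Ikzf1, Maf, Sall1, Cebpa and Bhlhe41, were taken by name from a count table of 24421 genes, and 9 of 9 were found there and passed the filter on low counts. They were followed through the cortex of 24 mice aged 7.5 months, 1 RNA-seq library per mouse.

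All mice carried 5xFAD, human transgenes with mutant amyloid precursor protein among them that cause amyloid plaques, so the controls carried them too. The 4 genotypes had 6 mice each. WT was wild type at both other loci, Trem2KO lacked Trem2, a lipid-sensing receptor of microglia, Plcg2KO lacked Plcg2, a phospholipase that signals downstream of it, and Plcg2HET was labelled heterozygous for the Plcg2 knockout. Plcg2KO held 4 males and 2 females, and each other genotype held 3 of each sex. The labels name neither the knockout constructs nor the background strain, and mice without 5xFAD were not analysed here. The comparisons ask whether loss of the receptor or of the phospholipase alters the factors that define microglia.

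Libraries held 36.3 to 83.0 M counts. Plcg2 stood at 8.32% of its WT level in Plcg2KO and Trem2 at 7.29% in Trem2KO, whereas Plcg2 in Plcg2HET stood at 101%, so the labelled loss of 1 copy is not seen in this RNA. Trem2 itself stood at 23.1% of WT in Plcg2KO. Markers of microglia were detected in 24 of 24 libraries. The 12 markers used for microglia of any state summed to 964 to 1651 CPM (counts scaled to library size) in WT, 644 to 921 in Trem2KO, 506 to 836 in Plcg2KO and 1004 to 1946 in Plcg2HET. Of these 12 markers, 12 were lower in Plcg2KO and 11 in Trem2KO than in WT (edgeR, adjusted p under 0.05). In bulk tissue, fewer microglia and less RNA per microglial cell cannot be told apart. Libraries also differed in how their deviation from the mean level went with GC content, given as a Spearman correlation over genes. It was below 0 in 6 of 6 Plcg2KO libraries (-0.56 to -0.28) and above 0 in 5 of 6 Trem2KO libraries (up to 0.52), and among the 9 factors Cebpa (62.6% GC), Spi1 (58.9%) and Irf5 (55.7%) had GC-rich transcripts against a median of 49.8% over all genes. Rn45s, the precursor of ribosomal RNA, made up 9.59% of the WT F1 library and, among Plcg2HET, 5.29% of F1 and 29.0% of F3.

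Promoters of 4 factors are shown as a description, and no result rests on them. Irf8 fell most, Runx1 and Bhlhe41 are the members with a window that holds a searched motif, and Cebpa was called different between the knockouts until GC content and length were allowed for. Each window runs across the annotated start, 300 bases in all, in RefSeq for GRCm38.p6, 5′ to 3′ on the gene's strand. The Irf8 window is chr8:120736108-120736407 (plus strand), that of Runx1 is chr16:92826025-92826324 (minus strand), that of Cebpa is chr7:35119043-35119342 (plus strand) and that of Bhlhe41 is chr6:145865371-145865670 (minus strand). Capitals mark matches to the motifs GAGGAAGT (PU.1), AANNGAAA (IRF core), TGTGGTT (RUNX), TTGCGCAA (C/EBP) and CACGTG (E-box) on either strand.
Irf8: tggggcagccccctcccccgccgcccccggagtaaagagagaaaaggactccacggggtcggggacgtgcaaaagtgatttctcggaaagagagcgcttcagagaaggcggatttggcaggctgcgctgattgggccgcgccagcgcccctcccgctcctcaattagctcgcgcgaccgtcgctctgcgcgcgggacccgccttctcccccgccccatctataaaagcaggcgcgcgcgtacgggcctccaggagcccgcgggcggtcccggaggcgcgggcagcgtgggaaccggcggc
Runx1: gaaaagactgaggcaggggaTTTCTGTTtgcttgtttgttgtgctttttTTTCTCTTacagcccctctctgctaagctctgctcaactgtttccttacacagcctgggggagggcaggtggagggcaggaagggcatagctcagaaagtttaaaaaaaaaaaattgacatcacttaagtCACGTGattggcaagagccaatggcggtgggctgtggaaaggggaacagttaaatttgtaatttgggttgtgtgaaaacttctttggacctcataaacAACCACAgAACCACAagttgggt
Cebpa: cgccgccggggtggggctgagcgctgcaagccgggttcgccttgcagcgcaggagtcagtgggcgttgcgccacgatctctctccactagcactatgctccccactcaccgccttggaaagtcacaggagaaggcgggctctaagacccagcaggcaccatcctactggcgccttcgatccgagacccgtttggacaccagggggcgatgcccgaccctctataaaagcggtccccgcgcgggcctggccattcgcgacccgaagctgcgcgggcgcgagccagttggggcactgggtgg
Bhlhe41: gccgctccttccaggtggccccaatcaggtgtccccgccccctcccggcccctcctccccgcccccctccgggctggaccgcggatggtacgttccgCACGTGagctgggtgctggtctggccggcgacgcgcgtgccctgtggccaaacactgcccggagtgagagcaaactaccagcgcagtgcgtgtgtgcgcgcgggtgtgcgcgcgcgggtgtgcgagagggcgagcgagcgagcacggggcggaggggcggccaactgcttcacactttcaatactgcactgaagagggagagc
The Runx1 window, which lies at the more distal of 2 annotated starts, held 2 RUNX matches that begin 28 and 36 bases into the transcript, 2 IRF core matches and 1 E-box. The Bhlhe41 window held 1 E-box that begins 153 bases before the start, and BHLHE41 is itself an E-box-binding repressor. The Irf8 and Cebpa windows held none of the 5 motifs, which says only that these letters are not in these 300 bases. Windows at a further annotated start of Irf8 and of Runx1, not shown, held no match either. Among 32851 RefSeq promoter windows, 3.2% held the PU.1 motif, 23.9% the IRF core, 5.27% the RUNX motif, 0.183% the C/EBP motif and 7.15% the E-box. Windows were found for Irf8, Irf5, Runx1, Ikzf1, Sall1, Cebpa and Bhlhe41. GC content of the 4 windows shown was 70% for Irf8, 45% for the distal Runx1 start, 67.3% for Cebpa and 70.7% for Bhlhe41.

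In WT cortex the factors were expressed at moderate levels. Per kilobase of exon, Bhlhe41 was highest at 11.8 ± 0.82 CPM per kb (SD, n = 6), followed by Spi1 at 8.19 ± 3.65, Cebpa at 7.35 ± 1.44, Irf8 at 6.38 ± 2.20 and Maf at 5.99 ± 0.72. Sall1 stood at 4.77 ± 0.43, Irf5 at 4.38 ± 1.46, Ikzf1 at 2.20 ± 0.56 and Runx1 at 0.411 ± 0.095 CPM per kb. The ranges of neighbours in this order overlapped down to Ikzf1, while each Runx1 value was below each value of the other 8 factors. The spread itself split the factors, as shown in the plot of levels by library. In WT, Spi1 was 5.95 to 7.17 CPM in the 3 males and 13.9 to 16.2 CPM in the 3 females, and Irf8 was 14.2 to 16.9 CPM in males and 25.5 to 30.2 CPM in females. Irf5, Ikzf1 and Cebpa likewise had each WT female above each WT male, while Maf, Sall1 and Bhlhe41 overlapped between the sexes.

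**Figure D1:**
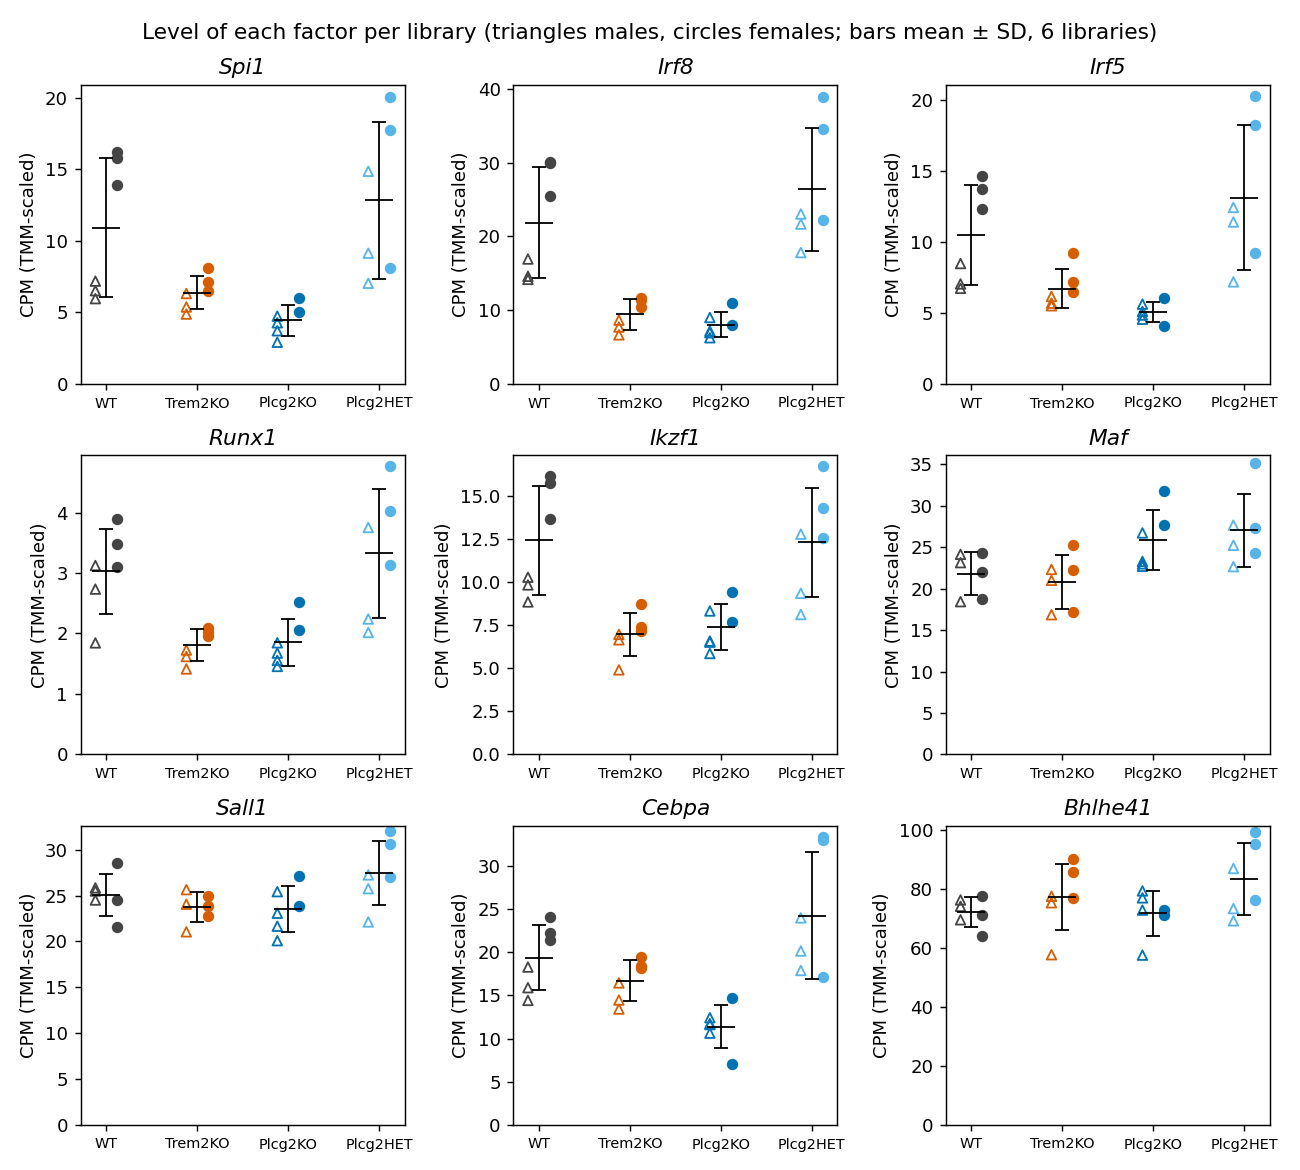
Level of each factor in each of the 24 libraries, in TMM-scaled CPM on a linear axis from 0, by genotype (triangles males, circles females, bars mean ± SD of 6). Spi1, Irf8, Irf5, Runx1 and Ikzf1 sit low in Trem2KO and Plcg2KO, whereas Sall1 and Bhlhe41 stay near their WT means of 25.1 and 72.2 CPM.

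The lineage-determining pair fell in both knockouts. Irf8 (chromosome 8, 120736358 to 120756692, plus strand, mm10), the partner of PU.1 that microglia need for their reactive genes, had a lowest, median and highest level of 14.2, 21.2 and 30.2 CPM in WT. It had 6.65, 9.57 and 11.7 CPM in Trem2KO, 6.26, 7.54 and 10.9 CPM in Plcg2KO, and 17.8, 22.7 and 38.9 CPM in Plcg2HET. Each library of either knockout was below each WT library, while Plcg2HET and WT overlapped. The log2 fold change was -1.29 in Plcg2KO (SE 0.13, edgeR adjusted p = 1.76e-07) and -1.18 in Trem2KO (SE 0.13, edgeR adjusted p = 9.9e-07), both against the same WT libraries. Knockout levels were thus 36.7% and 43.0% of the WT mean.

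Spi1 (chromosome 2, 91096797 to 91115756, plus strand), which encodes PU.1, had 5.95, 10.5 and 16.2 CPM as lowest, median and highest in WT. It had 4.87, 6.38 and 8.11 CPM in Trem2KO, 2.91, 4.50 and 5.99 CPM in Plcg2KO and 7.02, 12.0 and 20.0 CPM in Plcg2HET. In all, 5 of 6 Plcg2KO libraries and 2 of 6 Trem2KO libraries were below the lowest WT library, so both knockouts overlapped WT. The log2 fold change was -1.10 in Plcg2KO (SE 0.20, edgeR adjusted p = 0.000427) and -0.69 in Trem2KO (SE 0.20, edgeR adjusted p = 0.0173). The Trem2KO call was lost without WT F1, without WT F3 or without Trem2KO F2 (adjusted p = 0.0548, 0.0516 and 0.05).

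Irf5 (chromosome 6, 29526625 to 29537320, plus strand), an interferon regulatory factor that drives inflammatory genes in macrophages, had 6.73, 10.4 and 14.7 CPM in WT. It had 5.50, 6.30 and 9.23 CPM in Trem2KO, 4.07, 4.97 and 6.04 CPM in Plcg2KO and 7.18, 11.9 and 20.3 CPM in Plcg2HET. All 6 Plcg2KO libraries were below WT. Its log2 fold change was -0.91 in Plcg2KO (SE 0.18, edgeR adjusted p = 0.001) and -0.61 in Trem2KO (SE 0.17, edgeR adjusted p = 0.0178), the latter lost without WT F1, WT F3 or Trem2KO F1 (adjusted p = 0.0514, 0.0536 and 0.0528).

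The blood-lineage factors Runx1 and Ikzf1 fell to similar degrees. Ikzf1 (chromosome 11, 11685925 to 11772926, plus strand), the zinc finger protein Ikaros, had 8.86, 12.0 and 16.2 CPM in WT, 4.91, 7.07 and 8.77 CPM in Trem2KO, 5.87, 7.13 and 9.47 CPM in Plcg2KO and 8.13, 12.7 and 16.8 CPM in Plcg2HET. All 6 Trem2KO libraries were below WT, and Plcg2KO overlapped it. The log2 fold change was -0.81 in Trem2KO (SE 0.12, edgeR adjusted p = 7.03e-05) and -0.64 in Plcg2KO (SE 0.12, edgeR adjusted p = 0.000774). Runx1 (chromosome 16, 92601466 to 92826074, minus strand) was the least abundant member, at 1.84 to 3.89 CPM in WT, 1.41 to 2.09 in Trem2KO, 1.45 to 2.52 in Plcg2KO and 2.02 to 4.78 in Plcg2HET. Its log2 fold change was -0.74 in Trem2KO (SE 0.15, edgeR adjusted p = 0.00153) and -0.64 in Plcg2KO (SE 0.15, edgeR adjusted p = 0.00579), with overlap between the groups in each case.

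Cebpa (chromosome 7, 35119293 to 35121931, plus strand), a myeloid differentiation factor, passed the test in Plcg2KO and not in Trem2KO. Its lowest, median and highest levels were 14.4, 19.9 and 24 CPM in WT, 13.4, 17.3 and 19.4 CPM in Trem2KO, 7.11, 11.7 and 14.6 CPM in Plcg2KO, and 17.1, 22.1 and 33.3 CPM in Plcg2HET. For Cebpa, 5 of 6 Plcg2KO libraries were below WT. The log2 fold change was -0.69 in Plcg2KO (SE 0.16, edgeR adjusted p = 0.00351) and -0.21 in Trem2KO (95% interval -0.52 to 0.11, edgeR adjusted p = 0.395).

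The factors of the resident state did not pass the test in either knockout against WT, except that Sall1 was called lower in Trem2KO once GC and length offsets were used (-0.19, edgeR adjusted p = 0.0482). Sall1 (chromosome 8, 89027243 to 89044162, minus strand), a zinc finger repressor that in the adult mouse brain marks microglia among macrophages, averaged 25.1 ± 2.29 CPM in WT, 23.7 ± 1.64 in Trem2KO, 23.5 ± 2.54 in Plcg2KO and 27.5 ± 3.52 in Plcg2HET (SD, n = 6). Its log2 fold change was -0.08 in each knockout, with 95% intervals of -0.26 to 0.11 in Plcg2KO and -0.27 to 0.10 in Trem2KO. Bhlhe41 (chromosome 6, 145858243 to 145865420, minus strand), a helix-loop-helix repressor, averaged 72.2 ± 5.02 CPM in WT, 77.4 ± 11.2 in Trem2KO, 71.9 ± 7.61 in Plcg2KO and 83.5 ± 12.4 in Plcg2HET, with log2 fold changes of 0.01 (95% interval -0.20 to 0.22) in Plcg2KO and 0.09 (-0.12 to 0.30) in Trem2KO. Maf (chromosome 8, 115703253 to 115706894, minus strand), a basic leucine zipper factor, averaged 21.8 ± 2.63 CPM in WT, 20.8 ± 3.25 in Trem2KO, 25.9 ± 3.58 in Plcg2KO and 27.1 ± 4.39 in Plcg2HET. Its log2 fold change against WT was 0.26 in Plcg2KO (95% interval 0.03 to 0.49, edgeR adjusted p = 0.124) and -0.07 in Trem2KO (-0.30 to 0.16). The intervals of Sall1 and Bhlhe41 leave out the fall of the 12 microglial markers, whose mean log2 CPM was 1.15 lower in Plcg2KO and 0.89 lower in Trem2KO than in WT. The bulk levels of these 3 genes thus did not follow the microglial markers in this cortex. After genotype and sex means were removed, Maf, Sall1 and Bhlhe41 correlated with the mean of those markers at r = -0.15, -0.38 and -0.05. Spi1, Irf8, Irf5 and Cebpa had 0.60 to 0.72, Ikzf1 0.30 and Runx1 0.16, all without GC offsets. Which cells of the cortex hold Maf, Sall1 and Bhlhe41 RNA was not tested.

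Of the 9 factors, 6 were lower and 0 higher in Plcg2KO than in WT, where 7.63% of the 16316 genes tested were lower and 5.44% higher. In Trem2KO 5 were lower and 0 higher, against 8.16% and 7.56% of all genes. The median log2 fold change of the 9 was -0.64 in Plcg2KO and -0.61 in Trem2KO, and that of all genes was -0.00 and -0.02. In Plcg2HET none of the 9 was called by edgeR, against 7.13% of genes lower and 10.9% higher. There, 3 factors had an unadjusted p under 0.05, Irf8 (log2 fold change 0.30), Maf (0.31) and Cebpa (0.32), against 31.7% of all genes. DESeq2 called 1 of the 9 in Plcg2HET, Maf. The Plcg2HET fold changes of Irf8 and Cebpa were 0.16 and 0.11 without the 3 libraries rich in Rn45s. Libraries not overlapping WT from below were seen for 2 factors in each knockout, against 4.75% of all genes in Plcg2KO and 5.23% in Trem2KO.

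**Figure D2:**
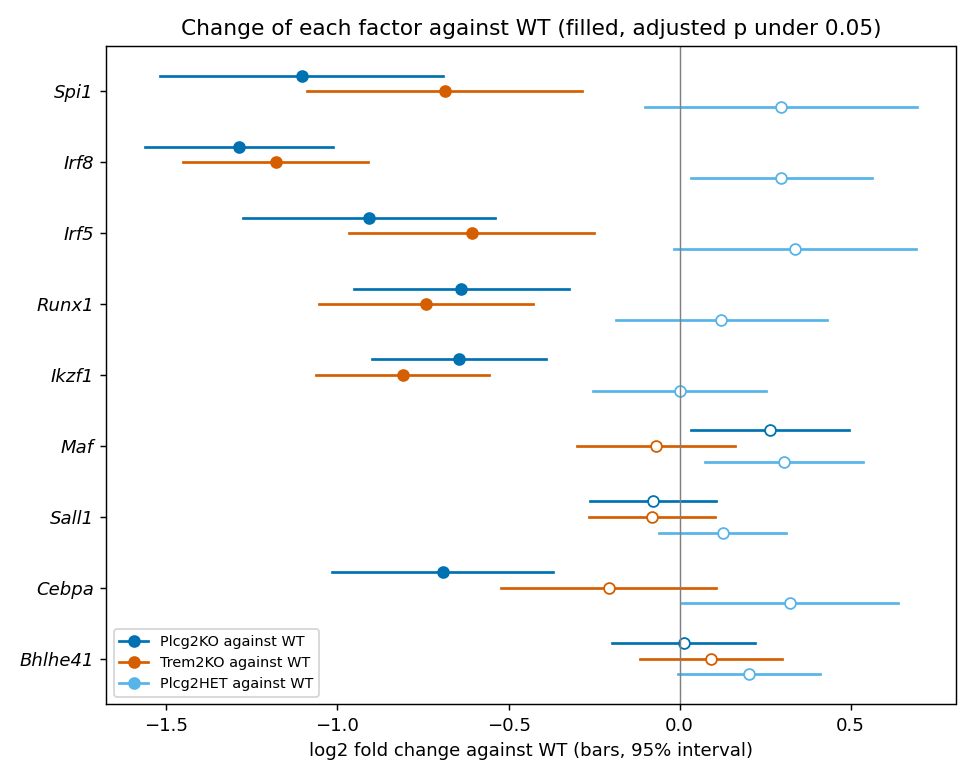
Log2 fold change of each factor against WT in Plcg2KO, Trem2KO and Plcg2HET with 95% intervals, filled where the edgeR adjusted p is under 0.05. Irf8 lies farthest to the left in both knockouts (-1.29 and -1.18), and the Plcg2HET values lie between -0.00 and 0.34.

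Plcg2KO against Plcg2HET gave the same 6 genes as Plcg2KO against WT. Irf8 was lower with a log2 fold change of -1.58, Spi1 of -1.40, Irf5 of -1.24, Cebpa of -1.01, Runx1 of -0.76 and Ikzf1 of -0.64 (edgeR adjusted p at most 0.000638), while 20.2% of all genes were lower and 15% higher. For Spi1, Irf8, Irf5 and Cebpa each Plcg2KO library was below each Plcg2HET library, against 4.44% of all genes. Plcg2HET M1, M2, F1 and F3 had GC trends above 0 and M3 and F2 had trends below 0. F1 and F3 also had the highest Spi1 level of the group at 20.0 and 17.8 CPM. With GC and length offsets, the log2 fold changes were -1.50 for Irf8, -1.09 for Spi1, -0.92 for Irf5, -0.93 for Runx1, -0.78 for Ikzf1 and -0.62 for Cebpa, and each was still called, with Bhlhe41 also called lower (-0.34, edgeR adjusted p = 0.00784).

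The direct comparison of the knockouts asked whether their effects differ. Cebpa was lower in Plcg2KO than in Trem2KO (log2 fold change -0.49, SE 0.16, edgeR adjusted p = 0.036) and Maf was higher (0.33, SE 0.11, edgeR adjusted p = 0.0442), where 8.82% of all genes were lower and 7.63% higher. Neither gene separated the groups. The Maf call was lost on leaving out WT M1 or F1, Trem2KO M1, M3, F1 or F3, or Plcg2KO M1, M2, M3, F1 or F2. The Cebpa call was lost on leaving out Trem2KO M1, M3, F1, F2 or F3, or Plcg2KO M3, F1 or F2. The other 7 did not pass the test, with intervals for Irf8 of -0.38 to 0.17, for Spi1 of -0.83 to -0.01, for Irf5 of -0.66 to 0.07, for Runx1 of -0.21 to 0.42 and for Ikzf1 of -0.09 to 0.42. This comparison also had the steepest relation of fold change to GC content of the 5 made (Spearman correlation of -0.64 over genes). When offsets removed each library's trends with GC content and length, the Cebpa difference was -0.14 (SE 0.12, edgeR adjusted p = 0.512) and that of Maf 0.28 (SE 0.11, edgeR adjusted p = 0.107), so neither was called. The differences of Spi1 and Irf5, which were not called, also shrank, from -0.42 to -0.16 and from -0.30 to -0.06. With the same offsets, Irf8 was lower than in WT by nearly equal amounts in both knockouts (-1.25 in Plcg2KO and -1.24 in Trem2KO), and Cebpa was called lower in both (-0.54 and -0.40, edgeR adjusted p = 0.00232 and 0.0189). That made 6 factors called lower in Plcg2KO and 7 in Trem2KO. Over all genes, lower or higher, no alternative fit called more than 3557 in Plcg2KO and 4780 in Trem2KO.

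**Figure D3:**
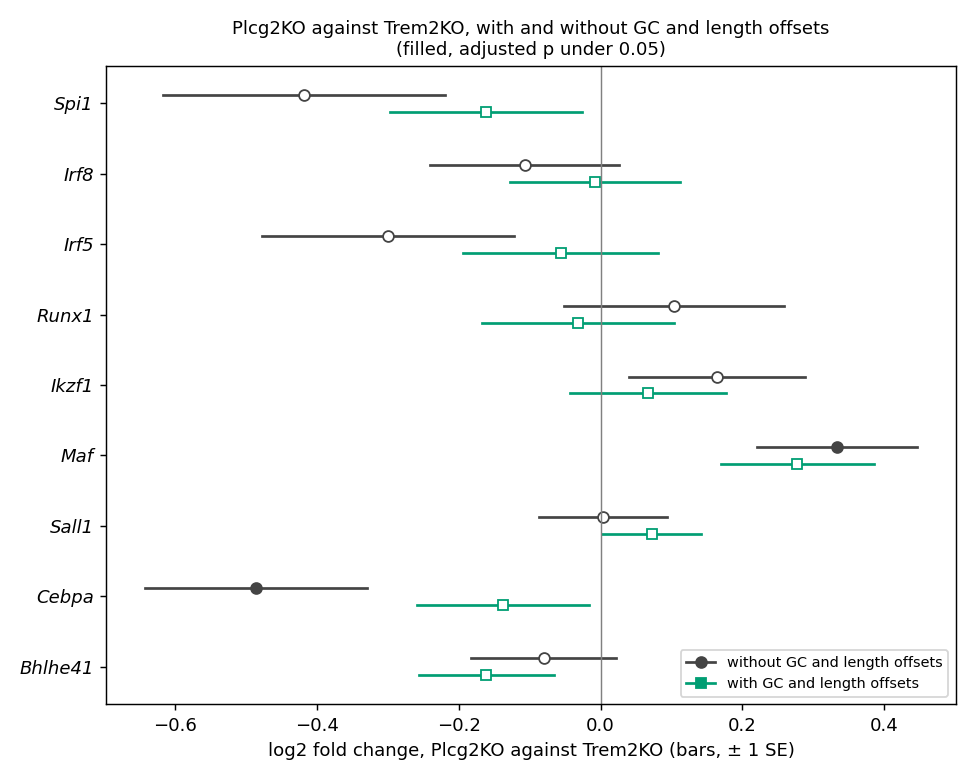
Log2 fold change of each factor in Plcg2KO against Trem2KO, without (circles) and with (squares) offsets for GC content and gene length, bars ± 1 SE, filled where the edgeR adjusted p is under 0.05. Cebpa moved from -0.49 to -0.14 and Maf from 0.33 to 0.28, and no square is filled.

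Each factor was then compared with the microglial markers. Here the mean log2 CPM of the 12 markers of any state in each library was placed in the offset, so that a change is relative to those markers. On this scale the median of all genes is shifted by 1.08 in Plcg2KO and 0.86 in Trem2KO, since most cortical genes did not fall with the markers. Spi1, Irf8 and Irf5 were not called against the markers in Plcg2KO, with relative log2 changes of -0.04 for Spi1 (95% interval -0.39 to 0.31), -0.23 for Irf8 (-0.49 to 0.04) and 0.15 for Irf5 (-0.16 to 0.46). With GC and length offsets added, Irf5 was called higher than the markers there (0.35, edgeR adjusted p = 0.0124) and Runx1 was not called (0.30, edgeR adjusted p = 0.075). In Trem2KO Spi1 stood at 0.22 (-0.13 to 0.56) and Irf5 at 0.30 (-0.00 to 0.61), and Irf5 was called on leaving out Trem2KO M3, Trem2KO F1 or Plcg2HET F2. In Trem2KO Irf8 was lower than the markers by a log2 change of -0.28 (SE 0.13, edgeR adjusted p = 0.0413), and the call was lost on leaving out WT M3, F2 or F3 or Trem2KO M2, M3 or F1 (values of -0.28 to -0.22), with no sex term and with no count filter. Runx1 (0.43) and Ikzf1 (0.43) fell less than the markers in Plcg2KO (edgeR adjusted p = 0.0249 and 0.00765; the Runx1 call was also lost with no sex term and without WT M3, WT F3 or Plcg2KO F1), while in Trem2KO they stood at 0.15 (-0.21 to 0.52) and 0.08 (-0.22 to 0.38). Cebpa fell less than the markers in Plcg2KO (0.34, edgeR adjusted p = 0.0233, lost with no sex term and without WT M1, WT M2 or Plcg2KO M1), and was higher relative to them in Trem2KO (0.68, edgeR adjusted p = 4.26e-05).

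Maf, Sall1 and Bhlhe41 moved like the typical cortical gene on that scale. Their relative log2 changes were 1.35, 1.0 and 1.09 in Plcg2KO and 0.81, 0.80 and 0.97 in Trem2KO, near the all-gene medians of 1.08 and 0.86. In all, 6 factors were higher and 0 lower relative to the markers in Plcg2KO, against 91.1% and 0.595% of all genes, and 4 were higher and 1 lower in Trem2KO, against 88.5% and 0.496%. The share of factors that rose on this scale was therefore below that of all genes in both. In Plcg2HET none of the 9 was called by edgeR relative to the markers, against 1.45% of genes lower and 2.16% higher. An unadjusted p under 0.05 was seen there for 1 factor, Irf8, against 19.5% of all genes. Between the knockouts Maf alone was higher in Plcg2KO (0.54, SE 0.16, edgeR adjusted p = 0.0301, lost without Trem2KO M1, M3, F1 or F3 or Plcg2KO M1 or F1), against 12% of genes higher and 0.87% lower. The choice of markers sets these values. With Csf1r alone as the marker, Spi1 (-0.53, edgeR adjusted p = 0.0174) and Irf8 (-0.70, edgeR adjusted p = 0.000254) were called lower in Plcg2KO. In Trem2KO the calls of Maf (0.20), Sall1 (0.20), Cebpa (0.08) and Bhlhe41 (0.39) were lost with Csf1r alone. Over all genes, 11566 were called in Plcg2KO and 3655 in Trem2KO with Csf1r alone. Against the 10 homeostatic markers, which were lower by 0.76 in Plcg2KO and 0.58 in Trem2KO, Spi1 (-0.42, edgeR adjusted p = 0.0208) and Irf8 (-0.61, edgeR adjusted p = 2.92e-05) were lower than the markers in Plcg2KO and Runx1, Ikzf1 and Cebpa stood at 0.05, 0.05 and -0.03.

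**Figure D4:**
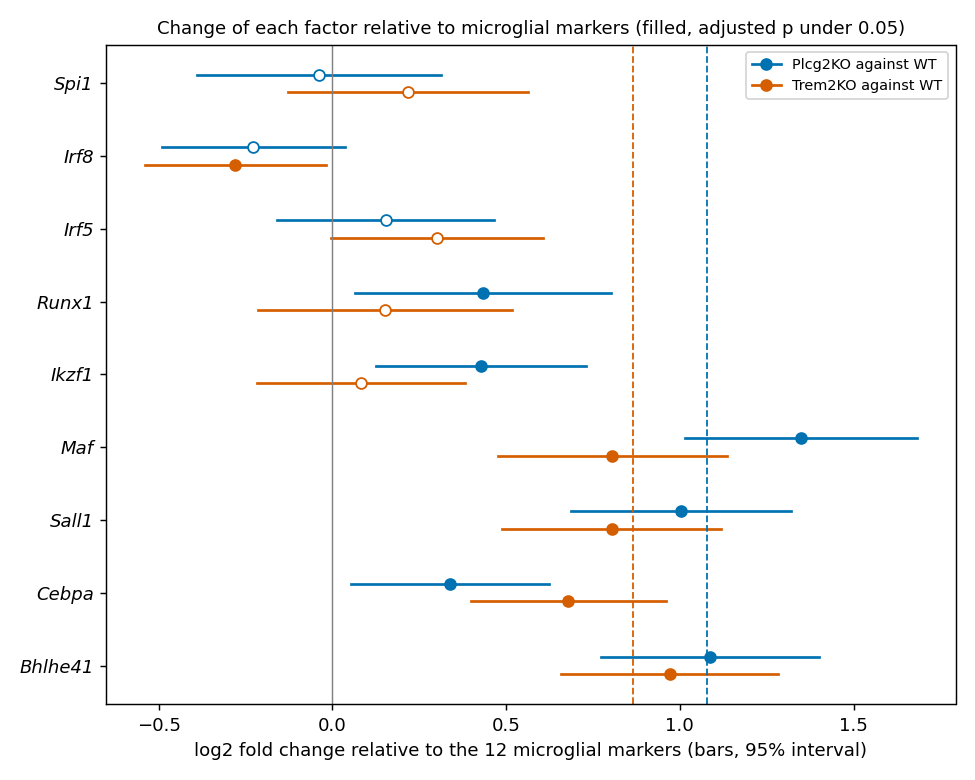
Log2 fold change of each factor relative to the 12 markers of microglia of any state, for Plcg2KO and Trem2KO against WT with 95% intervals, filled where the edgeR adjusted p is under 0.05; dashed lines give the median of all genes (1.08 and 0.86). In Plcg2KO Spi1 lies nearest 0 (-0.04) and in Trem2KO Ikzf1 does (0.08), while Maf, Sall1 and Bhlhe41 lie nearer to the dashed lines.

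Sex was examined because WT females and males differed in 5 of the factors. The fall of Spi1 in Plcg2KO was larger in females by a log2 difference of 0.72 in size (female minus male -0.72, SE 0.39), that of Irf5 by -0.86 (SE 0.34) and that of Irf8 by -0.54 (SE 0.26). None of the 9 was called for a sex difference by edgeR in Plcg2KO, Trem2KO or Plcg2HET against WT, and 0% of all genes were called in any of the 3. At an unadjusted p under 0.05 there was 1 factor in Plcg2KO (Irf5), 1 in Trem2KO (Spi1, female minus male -0.84, SE 0.37) and 0 in Plcg2HET. Of all genes, 7.79%, 2.91% and 5.44% had such a p in these 3 comparisons. In males alone Irf8 was the factor called in Plcg2KO (log2 fold change -1.06) and in Trem2KO (-0.99), and Spi1 stood at -0.75 and -0.24. In females alone 5 factors were called in Plcg2KO, with -1.58 for Irf8, -1.45 for Spi1, -1.40 for Irf5, -1.03 for Cebpa and -0.80 for Ikzf1, and Runx1 was not (-0.59, edgeR adjusted p = 0.136). In females of Trem2KO 4 were called, with -1.33 for Irf8, -1.06 for Spi1, -0.94 for Ikzf1 and -0.77 for Runx1, and Irf5 was not (-0.81, edgeR adjusted p = 0.0677). In males, the calls over all genes dropped from 2133 to 369 in Plcg2KO and from 2565 to 72 in Trem2KO. These were the fewest under any alternative fit, females alone included. The most were 3557 in Plcg2KO and 4780 in Trem2KO, with only the 2 genotypes fitted. The counts over all genes in females alone are not given here, so the 5 and 4 calls there have no share beside them.

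Lists of genes that PU.1 and IRF8 are known to act on were described next. They are microglial genes, and the 12 markers of any state themselves had a median log2 fold change of -1.12 in Plcg2KO and -0.97 in Trem2KO. Of 9 textbook targets of PU.1, 8 were lower in Plcg2KO and 7 in Trem2KO, with 0 higher in either, and median log2 fold changes of -0.84 and -0.86. Cybb, the membrane subunit of the phagocyte oxidase, fell by 1.81 in Plcg2KO and by 1.94 in Trem2KO on the log2 scale (edgeR adjusted p = 5.98e-06 and 3.63e-06). Csf3r, the receptor for granulocyte colony-stimulating factor, fell by 1.40 and by 0.86 on the log2 scale (edgeR adjusted p = 8.63e-08 and 9.68e-05). Csf2ra, a receptor subunit for granulocyte-macrophage colony-stimulating factor, had -0.84 and -0.92 (edgeR adjusted p = 4.59e-05 and 2e-05). Csf1r, the receptor that microglia need to survive, fell in Plcg2KO (-0.60, edgeR adjusted p = 0.00457) and stood at -0.30 in Trem2KO (edgeR adjusted p = 0.149), where GC and length offsets gave -0.41 (edgeR adjusted p = 0.00832). It is also among the 12 markers, as is Itgam, which had -0.57 and -0.49.

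Of 7 genes reported to need IRF8 in reactive mouse microglia, 5 were lower in Plcg2KO and 6 in Trem2KO, and 0 were higher. Tlr2, a sensor of bacterial lipids and amyloid, fell by 2.03 and by 1.52 on the log2 scale (edgeR adjusted p = 7.08e-08 and 5.16e-06). Cx3cr1, the fractalkine receptor, had -0.87 and -0.69 (edgeR adjusted p = 5.03e-07 and 1.76e-05), and Aif1, the actin-binding protein IBA1, had -1.14 and -1.04. Aif1 is one of the 12 markers, and Cx3cr1 and P2ry12 are among the 10 homeostatic markers. The 2 members that did not pass the test in Plcg2KO were Il1b (-0.34) and the purinergic receptor P2ry12 (0.08), which was lower in Trem2KO (-0.57, edgeR adjusted p = 0.00154).

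Relatives of the factors were followed by family. Of 7 other interferon regulatory factors, 4 were lower in Plcg2KO and 0 in Trem2KO, and the difference between those counts was not tested. The 4 were Irf9 (-0.70, edgeR adjusted p = 0.00136), Irf7 (-0.93, 0.00552), Irf1 (-0.47, 0.0162) and Irf3 (-0.46, 0.0434). In Trem2KO the same genes had -0.33, -0.30, -0.05 and -0.16. With GC and length offsets Irf3 was not called (-0.23, edgeR adjusted p = 0.0858) and Irf2 was higher (0.33, edgeR adjusted p = 0.0183). Of 6 other ETS factors tested, Ets1 (-0.60, edgeR adjusted p = 0.00186) and Elf4 (-0.51, edgeR adjusted p = 0.0375) were lower in Plcg2KO. In Trem2KO 2 of the 6 were lower as well, Ets1 (-0.36, edgeR adjusted p = 0.0492) and Fli1 (-0.37, edgeR adjusted p = 0.0425). Ets1 is also expressed by endothelial cells, and 6 of 7 endothelial markers were lower in Plcg2KO and 0 of 7 in Trem2KO, the part of which in the Ets1 and Runx1 values was not tested. Bhlhe40, the closest relative of Bhlhe41, was higher in Plcg2KO (0.53, edgeR adjusted p = 0.00172) and Plcg2HET (0.46, edgeR adjusted p = 0.00533) and stood at 0.29 in Trem2KO (edgeR adjusted p = 0.0697).

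Among the other relatives, 3 further C/EBP factors were tested, and in Trem2KO 1 was higher and 1 lower (median log2 fold change -0.10). Cebpb, which is induced in inflammation, was higher in Trem2KO (0.92, edgeR adjusted p = 0.00528), and stood at 0.55 in Plcg2KO (edgeR adjusted p = 0.106). Median log2 fold changes in Plcg2KO were -0.10 over the 2 tested genes of the RUNX group, 0.24 over 4 other Ikaros factors and -0.26 over 3 other SALL factors. In Trem2KO Ikzf5 was lower (-0.31, edgeR adjusted p = 0.0301) and Sall2 higher (0.45, edgeR adjusted p = 0.00806). Of 19 other macrophage regulators tested, 4 were lower and 1 higher in Plcg2KO, and 4 were lower and 3 higher in Trem2KO. Tgfbr2, the TGF-beta receptor that maintains resident microglia, fell in both (-0.90 and -0.78, edgeR adjusted p = 5.21e-06 and 5.2e-05), as did the homeobox gene Hhex (-1.14 and -0.89, edgeR adjusted p = 1.4e-05 and 0.000286) and the stress factor Atf3 (-1.14 and -0.79, edgeR adjusted p = 0.00053 and 0.00913). Tfeb, a regulator of lysosomal genes, was lower in Plcg2KO (-0.62, edgeR adjusted p = 0.0247) and stood at 0.07 in Trem2KO. Of the 9 NFAT and NF-kB factors, which act downstream of calcium and immune receptors, 4 were higher in Plcg2HET by edgeR, and these calls were lost without the 3 libraries rich in Rn45s. Of 7 STAT factors, Stat2 was lower in Plcg2KO (-0.36, edgeR adjusted p = 0.00324).

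Other cell types were checked through their markers. Maf is also a factor of cortical inhibitory neurons, whose 8 markers summed to 731 to 1010 CPM in WT, 1009 to 1145 in Plcg2KO, 913 to 1016 in Trem2KO and 701 to 1097 in Plcg2HET. Of these 8, 2 were higher in Plcg2KO than in WT, Erbb4 (1.27, edgeR adjusted p = 1.98e-06) and Gad2 (0.74, edgeR adjusted p = 0.0071). In Trem2KO 2 were higher as well, and in Plcg2HET 1 was higher and 1 lower. Between the knockouts 1 was higher in Plcg2KO. The part of these markers in the Maf difference was not tested. Markers of border-associated macrophages summed to 27.2 to 37.4 CPM in WT, 43.6 to 57.6 in Trem2KO, 38.7 to 46.8 in Plcg2KO and 36.8 to 53.3 in Plcg2HET, and of 10 such markers 4 were higher in Plcg2KO, 5 in Trem2KO and 6 in Plcg2HET, with 0 lower (median log2 fold changes 0.39, 0.45 and 0.46). Of 7 markers of monocytes and neutrophils 3 were tested, with a summed level of at most 1.39 CPM. Of 8 lymphocyte markers 6 were tested, and these summed to 15.3 to 16.3 CPM in WT, 14.4 to 19.0 in Trem2KO, 14.5 to 22.9 in Plcg2KO and 15.6 to 19.9 in Plcg2HET. Nearly all of that sum was Cd4, at up to 1437 counts in a library. Cd3e, Cd3g, Cd8a, Cd79a and Nkg7 had at most 27 counts in any library. S100a9 of neutrophils was higher in Plcg2KO (2.46, edgeR adjusted p = 0.0192) at no more than 46 counts in any library.

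Within a genotype and sex, the factors varied with different genes. Likeness was the Pearson correlation of log2 CPM over the 24 libraries after genotype and sex means were removed. It describes these libraries, which differ in depth and in their trends with GC content. Spi1, Irf8, Irf5 and Cebpa varied together, with r from 0.64 to 0.88 among their 6 pairs, whereas Runx1 and Ikzf1 had r = 0.47 with each other and -0.25 to -0.01 with those 4. After GC and length offsets these 8 correlations between the groups were all above 0, at 0.43 to 0.64, and Spi1 with Cebpa went from 0.64 to 0.24. Spi1 was most like Nkx6-2 (0.93), Thbs3 (0.91) and Mif4gd (0.91). Irf8 was most like Ip6k3 (0.90), Uba7 (0.90) and Capg (0.88), Irf5 was most like Cst6 (0.93), Thrsp (0.93) and Slc1a5 (0.92), and Cebpa was most like Fbxo2 (0.93), Nudt18 (0.90) and Vasp (0.90). Runx1 was most like Ap4e1 (0.83), Atf1 (0.82) and Sppl2a (0.82), and Ikzf1 was most like C920006O11Rik (0.85), Zc4h2 (0.83) and Parn (0.80). Maf was most like Arglu1 (0.86), Ptprd (0.83) and Hapln1 (0.82), Sall1 was most like Dzip1l (0.84), Kansl1 (0.83) and Ubr2 (0.83), and Bhlhe41 was most like Lbh (0.84), Cadm4 (0.78) and Scn2b (0.78). With the offsets Cadm4 had r = 0.06 with Bhlhe41, and Uba7 and Cst6 had 0.88 with Irf8 and 0.91 with Irf5.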

How the data were processed

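The authors deposited whole-number read counts per gene with exon coordinates and lengths, per the file headers, and expected counts in a further table. STAR 2.7.10a, featureCounts 2.0.3 and the mm10 build appear in the processing notes of the submitters; no source used here states the strand setting. Libraries were made from 100 ng of RNA, per the labels' protocols. The deposited expected counts, rounded, served 1 alternative.

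Counts were filtered with filterByExpr (minimum count 10, 16316 genes), scaled by TMM and fitted over all 24 libraries by edgeR 4.0.16 (quasi-likelihood, robust, genotype and sex) in R 4.3.3, adjusted by Benjamini-Hochberg over all genes, with a threshold of 0.05. Intervals are 95%. CPM are TMM-scaled. The labels do not say whether mice came from separate litters. Alternatives covered scaling, filters, DESeq2 1.42.0, sexes, GC and length offsets, Rn45s and single libraries; the offsets together with the marker offset and in the likeness correlations were added after seeing the data. Named were the 9 factors, at most 4 genes per list by p in Plcg2KO then Trem2KO, and the 3 most alike genes per factor with average log2 CPM of at least 1; further list members beside these were named after their values were seen. Members and lists were chosen with earlier results of these data known. Exons of the 9 factors overlapped 0 exons of other genes in the table. The fit was also run on simulated counts with the same spread for all genes and no GC trend, sex effect or library rich in Rn45s. That run therefore cannot speak to those features of the data. Some genes of the lists are not reported here.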

Additional observations from a re-analysis of the deposited data

Results flagged for a closer look

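Across 36 groups of 6 libraries (9 factors in 4 genotypes), 1 library stood far from the others of its group. Bhlhe41 in Plcg2KO M3 was 57.7 CPM, while the other 5 Plcg2KO libraries were 71.4 to 79.5 CPM, and the gap was 0.632 of the range of the group, above the 95% critical value of Dixon's test. Chance flags about 1 in 20 such groups.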

How the results depend on the processing

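The falls against WT kept their direction under each alternative for the 6 factors called in Plcg2KO and the 5 called in Trem2KO. In males alone, 1 factor was called in Plcg2KO and 1 in Trem2KO. Leaving out single libraries gave 6 to 6 calls in Plcg2KO, 3 to 5 in Trem2KO (3 without WT F1 or WT F3), 0 to 3 in Plcg2HET (3 without Plcg2HET F2: Irf8, Irf5 and Cebpa, higher) and 0 to 2 between the knockouts. Over all genes those fits called 1441 to 2596 in Plcg2KO and 1662 to 3025 in Trem2KO. They called 1957 to 4369 in Plcg2HET and 769 to 3911 between the knockouts. For Plcg2HET, DESeq2 called 1 and GC and length offsets called 1, Maf in both (0.31 and 0.40). With those offsets 3807 of all genes were called in Plcg2HET. Plcg2KO against Trem2KO had 2 calls, 1 with no count filter, with no sex term or with expected counts, 0 in males, in females or with GC and length offsets, and 4 with only the 2 genotypes fitted. Over all genes that comparison had 2684 calls, 6 in females alone and 6712 with only the 2 genotypes fitted. With the replicate code as a block the calls were 6 in Plcg2KO, 5 in Trem2KO, 0 in Plcg2HET, 0 between the knockouts and 6 against Plcg2HET, and relative to the markers 6, 4, 0 and 1. The counts over all genes with that block are not given here. Same codes did not pair the mice: over 33 pairs their residuals correlated with a median of -0.02, against 0.00 for other pairs. Relative to the markers, the knockouts differed for 0 factors with no sex term, with homeostatic markers or with Csf1r alone, and for 0 to 1 with single libraries left out; Trem2KO against WT had 1 call with Csf1r alone. Called relative values that turned direction in Plcg2KO were Cebpa with homeostatic markers (-0.028) and, with Csf1r alone, Runx1 (-0.065), Ikzf1 (-0.067) and Cebpa (-0.13). Spi1 and Irf5, not called there, also changed sign, Spi1 with GC and length offsets (0.17) and Irf5 with Csf1r alone (-0.34). The causes were not tested.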

Other observations

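Of 12 clock genes, the pathway in which BHLHE41 acts as a repressor, 3 were higher in Plcg2KO, 6 in Trem2KO and 5 in Plcg2HET than in WT, and 0 were lower, while Bhlhe41 was called in none of the 3. Cry2 was higher in each (log2 fold changes 0.27, 0.44 and 0.76, edgeR adjusted p = 0.0461, 0.00166 and 2.66e-05), as was Per1 (0.59, 0.84 and 0.96, edgeR adjusted p = 0.046, 0.00444 and 0.00174). Per2 was higher in Plcg2KO (0.51, edgeR adjusted p = 0.0494) and Plcg2HET (0.93, edgeR adjusted p = 0.000875) and stood at 0.04 in Trem2KO. Without the 3 libraries rich in Rn45s the counts were 0, 6 and 3. With GC and length offsets 7 were higher and 1 lower in Plcg2KO, 6 higher and 3 lower in Trem2KO, and 7 higher in Plcg2HET. The 3 comparisons share their WT libraries.

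Of 5 fibroblast markers, 4 were higher in Plcg2KO, 4 in Trem2KO and 3 in Plcg2HET (median log2 fold changes 0.52, 0.67 and 0.51). Col1a2 had 0.52, 0.94 and 0.51 (edgeR adjusted p = 0.00494, 9.34e-06 and 0.00554), and Col1a1 had 0.62, 0.95 and 0.54 (edgeR adjusted p = 0.00613, 0.000108 and 0.0147).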
